A study of Drosophila melanogaster with 6 samples.

Results

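The circadian clock genes examined here were per, tim, Clk, cyc, vri, Pdp1, cwo and cry, which are 8 of the 23932 features of the count table. They were picked by name, with the knockdown and control values of these libraries already known. Their differences between the groups are therefore given as a description, with no p-value. All 8 had counts in at least 1 library, and 7 of them were among the 9932 features that passed the filter on low counts. Clk did not pass it.

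RNA was sequenced from T4/T5 neurons of Drosophila melanogaster, the direction-selective neurons of the optic lobe, sorted by GFP from brains of larvae that developed at 25 °C to the climbing stage at the end of the larval period. The knockdown libraries (n = 3) came from animals in which the driver R23G12-Gal4 expressed UAS-DRGX-IR, an inverted repeat against Drgx, which encodes a homeobox transcription factor of the paired-like class. In the control libraries (n = 3) the same driver expressed UAS-cherry-IR, an inverted repeat against the cherry fluorescent protein. Both groups carried 1 copy of the driver and of UAS-CD8-GFP, a membrane-bound GFP, and both transgene products were made only where the driver was active. As the genotypes are written, UAS-DRGX-IR lies opposite the GFP transgene and UAS-cherry-IR opposite the driver, so the groups also differed in which chromosome carried the inverted repeat. The labels give no time of day, no light regime and no sorting batch, and do not say whether the libraries of a group came from separate animals.

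The fly clock is a transcriptional feedback loop. The proteins of Clk and cyc pair through their bHLH-PAS regions and activate per, tim, vri, Pdp1 and cwo through E-boxes. The proteins of per and tim enter the nucleus together and repress that pair, while vri encodes a bZIP repressor and Pdp1 a bZIP activator that act on Clk, cwo encodes a bHLH-Orange repressor at E-boxes, and cry encodes the blue-light receptor that leads to loss of the TIM protein. In the fly brain this loop runs in a small set of clock neurons, in glia and in photoreceptors, and T4/T5 neurons are not counted among the clock neurons.

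The table held 29587960 to 44054609 counts per library. Levels below are counts scaled to library size by TMM factors (normalised CPM), and 3 counts, taken as the floor for a feature with none, correspond to 0.069 to 0.102 CPM. Drgx itself had 729, 728.7 and 663.4 CPM in the knockdown libraries, against 2110, 2156 and 2160 CPM in the control libraries, with a log2 fold change of −1.60 (SE 0.0512, edgeR adjusted p 7.29e-08). Counts do not separate reads of its messenger RNA from reads of the hairpin. Of the 9932 features, 617 (6.21%) had an edgeR adjusted p under 0.05, here referred to as called. Of these, 209 were higher and 408 lower in knockdown. On the second principal component, which held 20.9% of the variance, knockdown replicate 2 stood at −50.6, while knockdown replicates 1 and 3 lay on the other side of 0, at 35.5 and 39.1. The values of tim and cwo are therefore also given without it, and the counts of calls over all such fits as a range in the closing section.

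Of the 7 tested clock genes, 1 was called, and that gene was tim, lower in knockdown. Over all tested features 6.21% were called, 4.11% lower and 2.1% higher. The groups did not overlap for 2 clock genes, tim and cyc, where 23.3% of all tested features had groups that did not overlap. The median log2 fold change over the 7 tested genes was −0.23, beside a median of 2.65e-05 over all tested features. The log2 fold change was below 0 for 4 of them and above 0 for 3. A gene set chosen with its values known is described by these counts only.

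Clk, the bHLH-PAS activator at the head of the loop (FBgn0023076, BDGP6.54, 3L, 7763233 to 7775603), was at or near the floor in 5 of the 6 libraries. It had 2, 0 and 62 counts in knockdown replicates 1, 2 and 3, against 2, 5 and 2 counts in control replicates 1, 2 and 3. The 62 counts of knockdown replicate 3 were 1.64 CPM, and no other library passed 0.115 CPM. Because 1 library carried nearly all counts of the knockdown group, no fold change is given.

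cyc, which encodes the partner of CLK (FBgn0023094, 3L, 19813770 to 19815938), was the most abundant member. Its level was 64.7, 60.7 and 77.6 CPM in the knockdown libraries, against 51.0, 46.5 and 52.4 CPM in the control libraries. Every knockdown library was above every control library. The means were 67.7 ± 8.86 CPM in knockdown and 49.97 ± 3.06 CPM in control (SD, n = 3 each), and the log2 fold change was 0.44 (SE 0.121, 95% interval 0.17 to 0.71). cyc was not called with the edgeR fit used throughout, but was called by DESeq2, by limma-voom and when at least 10 counts were asked of every library.

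per, which encodes the repressor that pairs with TIM (FBgn0003068, X, 2685580 to 2692780), was low and uneven. It had 3.33, 0.307 and 0.529 CPM in knockdown replicates 1, 2 and 3, against 4.37, 0 and 0.551 CPM in control replicates 1, 2 and 3. The first replicate of each group was the high one, and the knockdown values lay within the range of the control values. The log2 fold change was −0.23 with a 95% interval of −3.45 to 2.99, so that even a difference of several fold would not have been detectable. Without control replicate 1 it was 2.34, and it ranged from −1.95 to 2.34 over the fits that each left out 1 library. per shares 49 bp of exon with dyw on the opposite strand, and it is not stated whether the counting used strand.

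tim, which encodes the partner that carries PER into the nucleus (FBgn0014396, 2L, 3493986 to 3508119), was the member that differed most. It had 108, 19 and 40 counts in knockdown replicates 1, 2 and 3, against 901, 1162 and 599 counts in control replicates 1, 2 and 3. These were 3.33, 0.647 and 1.06 CPM in the knockdown libraries and 28.1, 26.7 and 17.4 CPM in the control libraries. The highest knockdown library lay well under the lowest control library. The mean was 1.68 ± 1.45 CPM in knockdown and 24.1 ± 5.83 CPM in control (SD, n = 3 each), so that knockdown retained 6.98% of the control level, a 14.3-fold difference. The log2 fold change was −3.84 (SE 0.511, 95% interval −4.98 to −2.69), and 45 of the 617 called features, tim included, had a log2 fold change that low or lower. It ran from −4.79 to −3.47 over the fits that left out 1 library, with −4.79 without knockdown replicate 1, the knockdown library with the most tim, and −3.47 without knockdown replicate 2. In sorted bulk cells, fewer cells that express a gene and less RNA per cell cannot be told apart. tim shares 545 bp of exon with an annotated noncoding gene on the opposite strand, lncRNA:CR46495, which is not among the features of the count table. It shares 151 bp with snoRNA:Or-CD16 on its own strand, which had 0 counts in every library. timeout, the paralogue of tim, had 5.59, 1.19 and 2.70 CPM in the knockdown libraries, against 2.81, 1.66 and 5.95 CPM in the control libraries, and its groups overlapped.

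**Figure D1:**
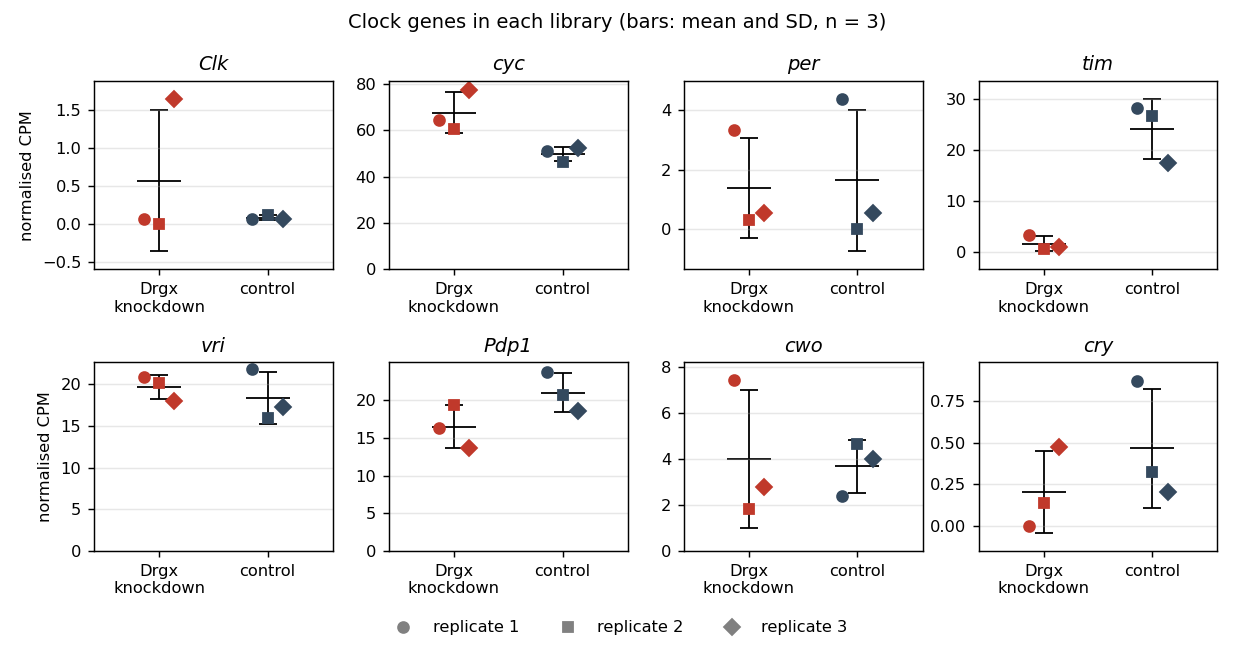
Normalised CPM (vertical axis, one scale per panel) of each clock gene in the 3 knockdown and the 3 control libraries; symbols are replicates and bars are the mean and SD. The tim panel shows knockdown libraries between 0.647 and 3.33 CPM and control libraries between 17.4 and 28.1 CPM, and in the per and Clk panels 1 library of a group stands above the rest.

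None of the other E-box genes of the loop was called, by edgeR, DESeq2 or limma-voom. vri, encoding the bZIP repressor of Clk (FBgn0016076, 2L, 5288944 to 5311223), had 20.8, 20.2 and 18.1 CPM in the knockdown libraries, against 21.8, 16.0 and 17.3 CPM in the control libraries. The groups overlapped, at 19.7 ± 1.46 CPM in knockdown and 18.4 ± 3.08 CPM in control (SD, n = 3 each). The log2 fold change was 0.10 (SE 0.167) and its 95% interval, −0.27 to 0.48, excluded a 2-fold difference either way.

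Pdp1, encoding the bZIP activator that shares its binding sites with VRI (FBgn0016694, 3L, 7811458 to 7867369), had 16.3, 19.4 and 13.7 CPM in the knockdown libraries, against 23.8, 20.7 and 18.5 CPM in the control libraries. The highest knockdown library lay between control libraries, so the groups overlapped. The means were 16.5 ± 2.85 CPM in knockdown and 21.0 ± 2.63 CPM in control (SD, n = 3 each), and the log2 fold change was −0.35 (SE 0.179, 95% interval −0.75 to 0.05). Pdp1 has 13 annotated transcripts, among them isoforms with roles outside the clock, and counts per gene do not separate them.

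cwo, encoding the bHLH-Orange repressor (FBgn0259938, 3R, 10388258 to 10400752), had 7.41, 1.81 and 2.75 CPM in knockdown replicates 1, 2 and 3, against 2.40, 4.62 and 4.01 CPM in control replicates 1, 2 and 3. Knockdown replicate 1 was the highest of the 6 libraries and knockdown replicate 2 the lowest. The log2 fold change was 0.12 with a 95% interval of −1.07 to 1.30. Without knockdown replicate 1 it was −0.69 and without knockdown replicate 2 it was 0.46, so its sign rested on which library was kept.

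cry, the blue-light receptor gene (FBgn0025680, 3R, 19212154 to 19215442), had 0, 4 and 18 counts in the knockdown libraries and 28, 14 and 7 counts in the control libraries. All were under 1 CPM, at 0, 0.136 and 0.477 CPM in knockdown and 0.874, 0.322 and 0.203 CPM in control. The groups overlapped, and the 95% interval of the log2 fold change of −1.15 ran from −3.89 to 1.59. It was −0.35 without control replicate 1 and −2.73 without knockdown replicate 3, the ends of its range over the leave-one-out fits. cry shares 329 bp of exon with a noncoding gene on its own strand, lncRNA:CR46393, which had 6 counts in control replicate 1 and 0 in the other libraries. It also shares 9 bp with vib on the opposite strand, which was at 147.5 to 164.8 CPM in knockdown and 161.1 to 167 CPM in control.

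**Figure D2:**
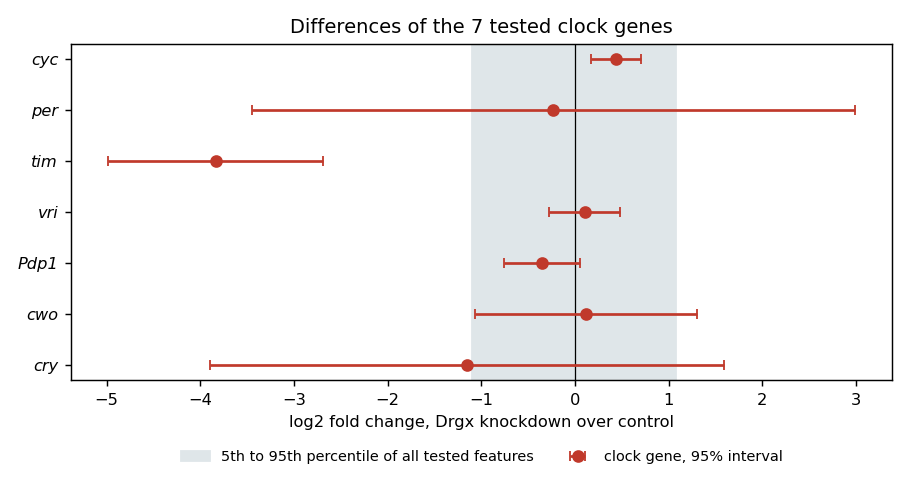
Log2 fold change of knockdown over control (horizontal axis) for the 7 tested clock genes, with 95% intervals; the shaded band spans the 5th to 95th percentile of all tested features, from −1.10 to 1.07. tim at −3.84 lies outside the band, vri and cyc have narrow intervals inside it, and the intervals of per and cry are the widest and pass the band on both sides.

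The members also differed in level, which can be compared between genes only per length. Per kilobase of exon, the control level of cyc was 30.8 CPM (28.6 to 32.2 over 3 libraries), above that of 72.5% of tested protein-coding genes. vri and tim followed at 3.88 CPM (3.37 to 4.61) and 3.42 CPM (2.47 to 3.99) per kilobase, with ranges that overlapped. Pdp1 was at 1.73 CPM per kilobase (1.53 to 1.96), below both. cwo and per, at 0.722 and 0.362 CPM per kilobase, had ranges that overlapped, as did per and cry, the last at 0.246 CPM per kilobase. Clk was lowest, at 0.0174 CPM per kilobase, so that of the pair of activator genes cyc was the highest of the members in control cells and Clk was near the floor.

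In the knockdown libraries cyc again came first, at 41.6 CPM per kilobase (37.3 to 47.8), and vri second, at 4.16 (3.81 to 4.40). Pdp1 at 1.36 CPM per kilobase and cwo at 0.783 came after vri. tim stood below per, at 0.239 CPM per kilobase (0.0919 to 0.474), with a range that overlapped those of per, Clk and cry. It stood above 4.30% of tested protein-coding genes in knockdown, against 28.3% in control. With the longest transcript as the length in place of all exons, the order of the genes was kept in each group, but the control ranges of tim (2.93 to 4.74) and Pdp1 (2.71 to 3.47) then overlapped.

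**Figure D3:**
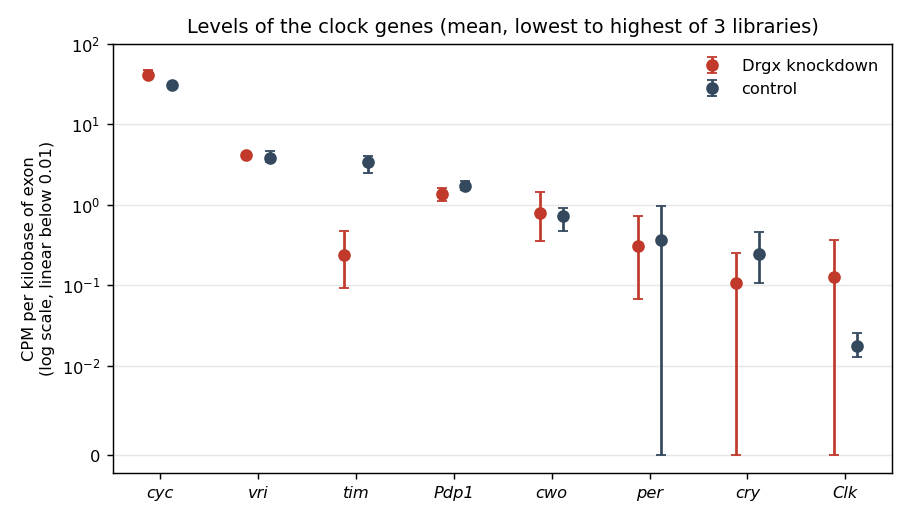
Normalised CPM per kilobase of exon (vertical axis, log scale, linear below 0.01) for each clock gene in knockdown and control, ordered by control level; points are means and bars run from the lowest to the highest of 3 libraries. tim lies beside vri in control and beside per in knockdown.

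The genome neighbourhoods of the members were not used to choose them. tim and Drgx lie on the same arm, 2L, with 155 kb between the end of tim and the start of Drgx. As given above, the groups also differed in which chromosome carried the inverted repeat. The part of that difference in the levels of tim and the genes around it was not tested. The gene next to tim on one side among tested genes, Thor (FBgn0261560, 2L, 3478434 to 3479612), which encodes the translation repressor 4E-BP, fell to 7.41 ± 0.554 CPM in knockdown, against 22.4 ± 1.61 CPM in control (SD, n = 3 each; log2 fold change −1.60, SE 0.164, edgeR adjusted p 2.17e-04). LeuRS and CG17593, the next 2 tested genes on the other side, were at −0.29 (adjusted p 0.218) and 0.02. The tested gene after these, CG8852, had 1, 3 and 0 counts in the knockdown libraries, against 73, 46 and 29 counts in the control libraries (edgeR adjusted p 0.0264). That call was lost in 5 of the 6 leave-one-out fits, each of which omitted 1 library.

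Within 200 kb of tim, a window set after these values were seen, 37 other genes besides Drgx were tested. Thor and CG8852 were the 2 called, which is 5.41%, beside 6.21% of all tested features. The median log2 fold change of the 37 was 0.16. The genes on the Drgx side beyond CG8852 were not called, among them for, which lies just before Drgx, at 2.64 CPM in knockdown and 3.42 CPM in control.

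**Figure D4:**
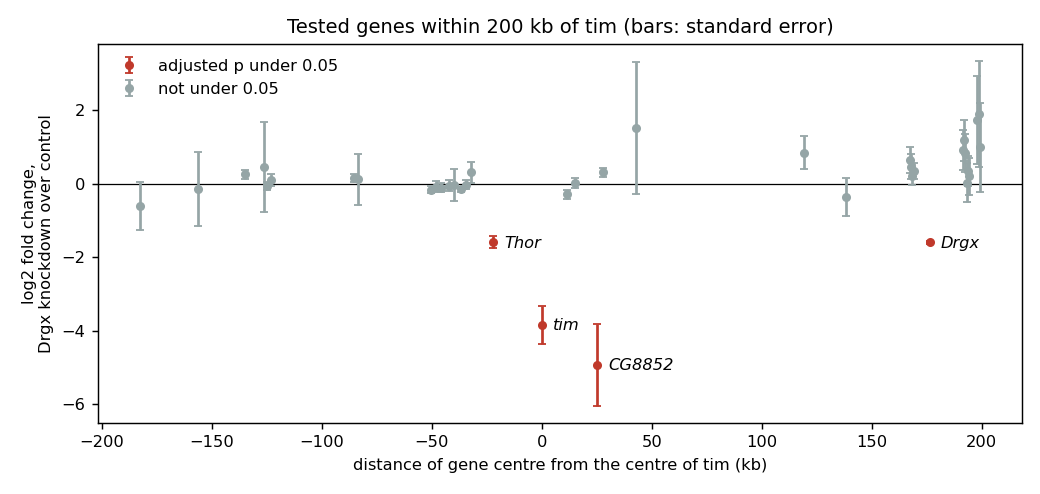
Log2 fold change of knockdown over control (vertical axis, bars are standard errors) for tested genes within 200 kb of tim, against the distance of the gene centre from that of tim in kb. Thor, tim, CG8852 and Drgx are below 0 and called, and the genes between and around them are not called.

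Clk and Pdp1 are also near each other, 35.9 kb apart on 3L, and neither was called. Among the 3 tested genes on each side of every member, 43 genes other than members, 5 were called, which is 11.6% beside 6.21% of all tested features, and all 5 fell. Besides Thor and CG8852 these were Deaf1 near cyc (−0.26, edgeR adjusted p 0.0422), CG14024 next to vri (−0.44, adjusted p 0.0122) and myd next to cry (−2.11, adjusted p 0.0387). Deaf1 encodes a DNA-binding factor; its call and that of myd were each lost in 5 of the 6 leave-one-out fits, and that of CG14024 in 2.

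The features whose values over the 6 libraries were most like a member's were sought among 6608 features with a mean of at least 5 CPM, by the root mean square difference of log2 CPM centred on the mean of the 6 libraries. For tim these were CG43737 and CG44153, at differences of 0.405 and 0.559 log2 units. CG43737 had 8.46, 1.53 and 4.90 CPM in the knockdown libraries, against 79.2, 104 and 80.7 CPM in the control libraries. As in tim, knockdown replicate 1 was the highest and replicate 2 the lowest of the knockdown libraries, an order that the choice of the features nearest to tim favours. CG44153 had 4.23, 2.76 and 3.55 CPM in the knockdown libraries, against 51.1, 48.0 and 43.7 CPM in the control libraries. For cyc the nearest were RfC4, a subunit gene of the clamp loader of DNA replication, and CG14971, at 0.0448 and 0.0791 log2 units, neither of them called. For cry, which had few counts, they were the integrin gene scb and CG9503, at 0.611 and 0.731 log2 units.

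Other genes of the clock pathway, from kinases that act on clock proteins to output genes downstream of the loop, were examined as 5 lists of 44 genes, of which 40 were tested. These lists and the marker lists below were, like the members, chosen with earlier results of these data known, so their counts are a description. In total 4 of the 40 clock-related genes were called, 2 higher and 2 lower, which is 10% beside 6.21% of all tested features, and 3 of the 4 were output genes. The median log2 fold change of the 40 was −0.02. None of the 10 kinases, phosphatases and their partners was called by edgeR, although 4 had an unadjusted p under 0.05, and DESeq2 called 2. dbt, the casein kinase that phosphorylates PER, was at 326.4 ± 14.9 CPM in knockdown and 343.9 ± 18.0 CPM in control (SD, n = 3 each), and sgg, the GSK3 kinase that phosphorylates TIM, was at 365 ± 20.5 CPM in knockdown and 412 ± 20.4 CPM in control. The kinases that act on PER and TIM were thus abundant in both groups.

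None of the 8 genes of protein degradation and light input was called by edgeR, with 1 at an unadjusted p under 0.05 and 1 called by DESeq2. That gene was the opsin gene Rh7, at 2.59, 1.98 and 1.03 CPM in the knockdown libraries, against 0, 0.092 and 0.406 CPM in the control libraries (edgeR adjusted p 0.120). slmb and jet, which encode F-box proteins for the destruction of PER and of TIM, had log2 fold changes of −0.07 and −0.17. None of the 5 genes for translation of clock messages was called by edgeR or DESeq2, and none had an unadjusted p under 0.05.

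Of 6 tested regulators of transcription in the clock, Eip75B fell. It encodes a nuclear receptor of the ecdysone response that is also known to act on clock gene expression in clock neurons. Its level was 636.1, 684.8 and 660.8 CPM in the knockdown libraries, against 902.3, 794.3 and 840.0 CPM in the control libraries (log2 fold change −0.36, SE 0.0607, edgeR adjusted p 0.00576). The groups did not overlap. kay and nej, a Fos factor and the CBP acetyltransferase gene, were at −0.48 (adjusted p 0.0741) and −0.22 (0.122), both called by DESeq2, which called 3 of this list, and gl, needed for a group of clock neurons and for photoreceptors, stayed at or under 1.71 CPM in every library. Hr51 did not pass the filter.

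Of 11 tested output genes, 2 rose and 1 fell, where 2.1% of all tested features rose and 4.11% fell. Dh31-R, the receptor gene of the peptide DH31, rose to 17.4, 10.7 and 17.1 CPM in the knockdown libraries, against 2.50, 1.38 and 1.13 CPM in the control libraries (log2 fold change 3.18, SE 0.351, edgeR adjusted p 3.55e-04). Fas2, an adhesion gene of axon bundles, rose to 485.4 ± 14.99 CPM in knockdown, against 385.8 ± 19.1 CPM in control (SD, n = 3 each; log2 fold change 0.33, SE 0.0599, adjusted p 0.00822). na, which encodes the sodium leak channel that sets the excitability of clock neurons, fell to 34.4 ± 7.01 CPM in knockdown, against 57.0 ± 5.34 CPM in control (SD, n = 3 each; −0.73, SE 0.157, adjusted p 0.0222). The na call was lost in 5 of the 6 leave-one-out fits, with adjusted p from 0.0552 to 0.0976, and that of Fas2 without control replicate 2 (0.0595) or 3 (0.0538). The output peptide gene Pdf was at 0.648, 0.920 and 0.821 CPM in the knockdown libraries, against 2.12, 2.67 and 2.90 CPM in the control libraries (adjusted p 0.0917), and was called by DESeq2. Its receptor gene Pdfr, Lk and to did not pass the filter, and to had 0 counts in every library.

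**Figure D5:**
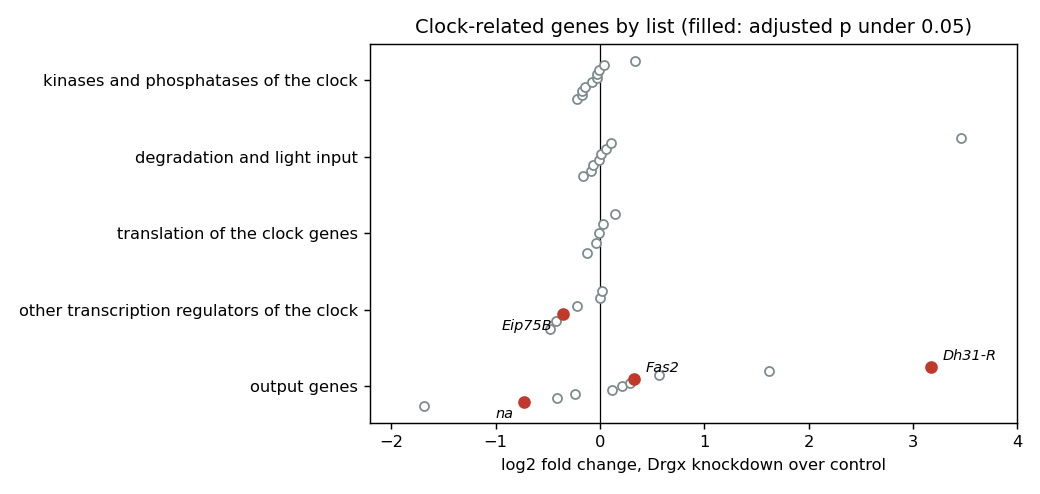
Log2 fold change of knockdown over control (horizontal axis) of the 40 tested clock-related genes in 5 lists; filled points had an edgeR adjusted p under 0.05. Eip75B and na lie below 0, Fas2 and Dh31-R above, and the list of kinases and phosphatases stays between −0.22 and 0.33.

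Markers of the sorted cells and of other cells that run a clock were measured in the same libraries. The T4/T5 lineage list was present, with summed levels of 3337 to 3503 CPM in knockdown and 4995 to 5284 CPM in control, and 4 of its 9 genes fell, where 4.11% of all tested features fell. DESeq2 called 5 genes of this list, and 6 had an unadjusted edgeR p under 0.05. acj6, a POU factor of these neurons, was at 689.4 CPM in knockdown and 592.6 CPM in control on average, and TfAP-2 at 561.4 CPM in knockdown and 577.6 CPM in control. fd59A was at 10.4 CPM in knockdown and 5.23 CPM in control on average. Every knockdown library was above every control library for acj6 (log2 fold change 0.22, edgeR adjusted p 0.0710) and fd59A (0.99, edgeR adjusted p 0.177), neither called by edgeR. The genes that fell were Sox102F (−2.05), dac (−0.88), SoxN (−0.60) and bi (−0.44), all transcription factors, with edgeR adjusted p of 0.00269 or less. Of 6 neuronal genes the synaptic genes brp (−0.78), nSyb (−0.48) and Syt1 (−0.46) fell, the last not without control replicate 2 (adjusted p 0.0535), while elav was at 1010 CPM in knockdown and 1026 CPM in control on average. The part of these differences in the levels of the clock genes was not tested. Clock neuron markers summed to 25.6 to 32.3 CPM in knockdown and 19.4 to 27.6 CPM in control, and 0 of 5 tested genes were called by edgeR. The peptide gene ITP made up 20.5 to 29.2 CPM of this in knockdown and 15.6 to 21.5 CPM in control, so the sum mostly reflects ITP. Pdf went the other way, with a log2 fold change of −1.68. It was the 1 gene of the list with an unadjusted edgeR p under 0.05 and the 1 called by DESeq2. With at least 10 counts asked of every library, 1 gene of the list was called. Photoreceptor markers summed to 0.511 to 3.797 CPM in knockdown and 0.575 to 2.41 CPM in control, and ninaE, Rh3, Rh6 and trp had 0 counts in all 6 libraries. Whether these genes are expressed in photoreceptors at this larval stage was not tested, so the 0 counts do not show that photoreceptors were absent.

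Of 9 tested glial genes 3 rose and none fell by the edgeR test, where 2.1% of all tested features rose and 4.11% fell. Their median log2 fold change was 0.39, and DESeq2 called 4. An unadjusted edgeR p under 0.05 was found for 6 of the 9, and for 1630 of all 9932 tested features. The 9 genes summed to 833.9 to 896.9 CPM in knockdown and 618.4 to 701.2 CPM in control, and nrv2 alone averaged 600.1 CPM in knockdown and 460.4 CPM in control. Gs2, loco and nrv2 rose, by 0.75 (edgeR adjusted p 0.0104), 0.84 (0.0116) and 0.38 (0.00408) on the log2 scale, while repo, the defining factor of glia, was at 9.82 ± 1.86 CPM in knockdown and 9.74 ± 2.66 CPM in control (SD, n = 3 each). Not called by edgeR, wrapper, moody, Eaat1 and alrm were at 0.69, 0.54, 0.39 and 0.33 on the log2 scale. Gat, a glial GABA transporter gene, was at 8.92 ± 5.38 CPM in knockdown and 13.6 ± 1.24 CPM in control (SD, n = 3 each; log2 fold change −0.60) and was not called. loco shares 1032 bp of exon with an antisense gene. Gs2 lost its call in 3 of the 6 leave-one-out fits and loco in 2, so that without knockdown replicate 1 only nrv2 of the list was called. The part of glial RNA in the levels of the clock genes was not tested. Progenitor markers summed to 217.4 to 235.9 CPM in knockdown and 226.9 to 237.4 CPM in control, with 0 of 5 tested genes called by edgeR or DESeq2 and 2 at an unadjusted p under 0.05. Those 2 went opposite ways, with ase higher (log2 fold change 0.39) and mira lower (−0.36) in every knockdown library than in any control library. tll alone averaged 128.7 CPM in knockdown and 138.5 CPM in control, so the sum mostly reflects tll. Of the hemocyte list Ppn rose, at 3.33 ± 0.554 CPM in knockdown and 0.144 ± 0.115 CPM in control (SD, n = 3 each; adjusted p 0.00425), while NimC1, He and srp had 0 counts in all libraries. No fat body gene passed the filter.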

How the data were processed

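The authors deposited 1 table of raw counts per FlyBase feature with 1 column per library, and the submitters' processing notes name STAR, DESeq2 and the build BDGP6 without versions or roles. Libraries were made with SMART-Seq v4 per the labels' protocols, which amplifies full-length complementary DNA. The counting program, annotation release and strand setting are not given in the sources used here. Of 23932 features, 23851 matched the Ensembl 115 annotation of BDGP6.54, from which symbols, positions and exon lengths were taken by identifier.

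Features were kept with filterByExpr (minimum count 10) of edgeR 4.0.16 in R 4.3.3, scaled with TMM and tested with the quasi-likelihood F test, on a model with 1 factor, the group, and Benjamini-Hochberg adjustment over all 9932 tested features at a threshold of 0.05. Standard errors were derived as the ratio of the absolute log2 fold change to the square root of F, and 95% intervals use the degrees of freedom of that test. With 3 libraries against 3, p-values measure the spread between these libraries, which may be technical. The reads were amplified without molecular tags, so floors cover the error of counting and no other. No 2 libraries agreed within sampling noise, with a chi-square per degree of freedom of at least 24.2 for any pair. On simulated counts with 200 genes changed 4-fold, the fit recovered 182 and made 10 false calls among 9554 tested genes, and it made 0 calls on data with none changed. The changed genes were drawn only from features with higher mean counts, so this recovery does not cover genes with few counts, such as per and cry.

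The members and the lists were chosen with earlier results of these data known. Named genes are the members, Drgx, called list genes, called neighbours and the 2 features most like the 3 members with the largest log2 fold changes; other genes were named after their values were seen. The lists were kinases and phosphatases, degradation and light input, translation, transcription regulators and output of the clock, and markers of T4/T5, neurons, glia, photoreceptors, clock neurons, progenitors, hemocytes and fat body. Alternatives were DESeq2 1.42.0 and its size factors, library size only, 2 other filters, limma-voom (limma 3.58.1), the replicate number as a block, and omission of each library in turn. No sequences are shown and promoter motifs were not searched.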

Additional observations from a re-analysis of the deposited data

How the results depend on the processing

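tim was called in all 13 alternatives, with log2 fold changes from −4.79 to −3.47. The 21 other called genes that were followed through the alternatives kept their sign in each. CG43737 and CG44153, the features most like tim, were not followed. The alternatives refit the same libraries, whose values were known when the members were picked, so they lend no separate support. DESeq2 called 952 features, against 617 with edgeR, and 10 of the clock-related genes in 5 lists, against 4. With DESeq2, limma-voom or a minimum of 10 counts in each library, 2 clock genes were called, tim and cyc. Leaving out 1 library gave 399 to 556 called features and 2 to 4 called clock-related genes, with the lowest counts without control replicate 2 (399 and 2) and also 2 without control replicate 3, where fewer samples were fitted. The count of called clock genes stayed at 1 in those fits, and the median log2 fold change of the tested clock genes ran from −0.59 to 0.15. Neither per nor cwo was called in any alternative, but their sign differed from that of the reported value with limma-voom (1.855 and −0.12 on the log2 scale), with the replicate number as a block (0.76 and −0.12) and in some fits without 1 library. Clk was tested only with no filter beyond 1 count. Of 271 values of 21 other named genes under the alternatives, 236 stayed called and 35 did not. The replicate number as a block gave 556 called features, 1 called clock gene and a tim log2 fold change of −4.04. Deviations of libraries with the same number correlated at 0.0246, −0.017 and −0.0591, so the numbers are not treated as pairs. The planned search of promoter motifs was not run. The intervals of per and cry span several fold in both directions and Clk did not pass the filter, so a change of moderate size in these genes was not detectable.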
